A study of Homo sapiens with 6 samples.

Results

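The genes described here are the replication-dependent histone genes, which encode the linker histone H1 and the core histones H2A, H2B, H3 and H4 that package newly made DNA. They were taken as the rows of the count table whose Ensembl identifier carries a symbol of the form H1-1 to H1-6, H2AC, H2BC, H3C or H4C followed by a number, formerly HIST1H to HIST4H. This gave 69 of 64299 rows, of which 6 were H1 genes, 17 H2A, 18 H2B, 13 H3 and 15 H4. In the GENCODE 29 annotation of GRCh38, 55 of them lie on chromosome 6, 13 on chromosome 1 and 1 on chromosome 12.

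Histone messenger RNA of this class is the exception among messenger RNAs of animal cells in that it normally ends in a stem-loop and not in a poly(A) tail. The stem-loop binding protein SLBP holds the stem-loop, the U7 small nuclear ribonucleoprotein guides the cut downstream of it, and the mature RNA is made in S phase and destroyed when replication stops. Some of these genes also give transcripts that run past the stem-loop to an ordinary poly(A) site, and only RNA with a poly(A) tail is enriched by an mRNA library of the kind used here. Replacement histones such as H3.3 and H2A.Z are made through the cell cycle from separate genes with ordinary polyadenylated messages, which need not hold for every histone variant.

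The study compared RNA from cells of the human embryonic kidney line HEK293T, named HEK293 in the series text, after transfection with a plasmid. The 3 ERbeta libraries came from cells given a plasmid expressing ERbeta, written ER-β in the series text. The 3 EV_Ctrl libraries came from cells given an empty vector. Both groups received a plasmid total of 1 ug by FuGene 6, so transfection itself was shared, and the libraries were made with the TruSeq Stranded mRNA kit. The labels do not spell out ER-β. The title of the series concerns the endoplasmic reticulum and amyloid proteins, and as background the name is understood as an artificial β-sheet protein sent to that compartment, not an estrogen receptor. The labels give neither the share of cells that took up a plasmid nor whether the 3 replicates of a group were separate cultures. Every p-value below therefore measures how these libraries scatter, and that scatter may be technical.

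Total counts ranged from 6833442 in EV_Ctrl 1 to 27101644 in EV_Ctrl 2, and 44 to 53 of the histone genes had at least 1 read in a library. The first principal component held 60.8% of the variance and set EV_Ctrl 1 and 3, at 44.7 and 41.5, apart from the other 4 libraries, at -42.1 to -13.9. EV_Ctrl 2 lay with the ERbeta libraries. In EV_Ctrl 1 and 3 the fifth of genes with the lowest GC content also deviated by -0.48 and -0.40 on the log2 scale. The libraries held all 6 of the markers of HEK293 derivatives that were looked for, and none of the 6 markers of other cell types had enough reads to be tested. In bulk RNA, fewer expressing cells and less RNA per cell cannot be told apart.

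The stem-loop was the first feature examined, because it decides how these messages end. In the GENCODE 29 transcripts (GRCh38), 35 of the 69 genes had an annotated 3′ untranslated region, and 31 of those held a match within 3 mismatches to the 16-base stem-loop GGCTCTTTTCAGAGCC, the most frequent perfect hairpin (arms of 6 bases, loop of 4) within 100 bases after the stop codon. The matches started 23 to 68 bases after the stop codon (median 36), and 17 were exact. The windows below, with the stem-loop in capitals, show the common form, the H4 form and the forms carried by the genes the results turn on. Positions within the stem-loop are counted from 1 at its 5′ end.
H2AC6 (chr6:26124664-26124689, plus strand): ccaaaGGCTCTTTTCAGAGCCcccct
H2AC25 (chr1:228457364-228457389, minus strand): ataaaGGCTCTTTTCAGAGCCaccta
H3C10 (chr6:27810511-27810536, plus strand): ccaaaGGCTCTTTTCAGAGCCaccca
H4C8 (chr6:26285126-26285151, minus strand): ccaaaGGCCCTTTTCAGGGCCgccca
H2AC11 (chr6:27133510-27133535, plus strand): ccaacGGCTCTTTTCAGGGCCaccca
H2BC5 (chr6:26158582-26158607, plus strand): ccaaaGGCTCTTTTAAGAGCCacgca
The H4 form, with T4C and A13G exchanged on both arms of the stem, occurred in 5 H4 genes, and 3 more H4 genes added a change in the loop. H2BC5 shared the loop change C10A with H2BC4, H2BC7 and H3C8. H2AC11 carried A13G alone and H3C6 carried T8C.

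The promoters were compared next, because H2B genes are known for an octamer site, ATTTGCAT, bound by the factor OCT1. In the RefSeq promoter table (GRCh38.p14, 250 bases before to 50 after each start, 64 of the 69 genes matched), ATTTGCAT on either strand was present in 14 of 18 H2B promoters (77.8%), against 1.80% of all 27305 promoters. It was also found in 11 of 16 H2A promoters, 1 of 11 H3 promoters, and 0 of 6 H1 and 0 of 13 H4 promoters. H2A and H2B genes lying head to head, 218 to 330 bases apart, share much of this window. The same octamer can therefore count for both, and the H2A and H2B numbers are not independent. The 4 H2B promoters with no exact match were those of H2BC5, H2BC13, H2BC15 and H2BC26. Shown are 60 bases around the octamer, in capitals, of the 2 H2B genes with 10 reads in every library whose best match differs by 1 base and of the 3 other H2B genes with most data that have the exact motif.
H2BC5 (chr6:26158051-26158110, plus strand): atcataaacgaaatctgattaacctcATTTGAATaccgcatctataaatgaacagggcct
H2BC26 (chr1:228458032-228458091, plus strand): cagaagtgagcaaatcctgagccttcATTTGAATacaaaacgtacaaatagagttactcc
H2BC12 (chr6:27146871-27146930, minus strand): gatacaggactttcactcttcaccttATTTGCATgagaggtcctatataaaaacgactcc
H2BC11 (chr6:27132809-27132868, minus strand): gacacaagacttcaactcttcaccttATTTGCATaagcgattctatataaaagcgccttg
H2BC21 (chr1:149886695-149886754, minus strand): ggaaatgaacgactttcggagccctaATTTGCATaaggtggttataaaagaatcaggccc
H2BC5 and H2BC26 both carried C6A, counted from 1 at the 5′ end of ATTTGCAT. These best matches were sought only on the gene's own strand in the 250 bases before the start. In that search the thinly read H2BC17 carried T3C. It still counts among the 14 with an exact motif, which was searched on both strands of the whole window. The motif CCAAT was present in 54 of the 64 promoters, against 35.7% of all promoters, and TATAAA in 42 of 64, against 12%, both searched on both strands. Over all families, the octamer was present in 7 of 17 promoters of genes with at least 10 reads in every library. It was present in 19 of 47 of the others. This count mixes families with and without the octamer. Within H2B, all 4 genes with no exact match except H2BC13 had at least 10 reads in every library. A link between the octamer and level was not tested. These matches describe the letters in the window and say nothing on which factor was bound.

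A minority of the histone genes carried nearly all of the histone reads, and the share of well-read genes was close to that of the whole table. At least 10 reads in all 6 libraries were found for 17 of the 69 genes (24.6%), against 22.4% of all rows of the table. At a minimum of 5 reads the number was 24, and at 20 reads it was 14. Under 10 reads in every library were found for 35 genes. Of the 69 genes, 10 had 0 reads everywhere, against 33813 of the 64299 rows of the table, so the histone genes were less often at 0. The 17 genes held 92.3% of the 19920 histone reads. H1-2 alone held 21%, and together with H2AC25, H2BC12, H2AC6 and H3C10 it held 62.4%.

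Every family had at least 1 gene among the 17. H1-2 was the single one of 6 linker histone genes. H2A had 5 of 17, namely H2AC6, H2AC8, H2AC11, H2AC13 and H2AC25. H2B had 7 of 18, namely H2BC5, H2BC11, H2BC12, H2BC15, H2BC18, H2BC21 and H2BC26. H3 had 2 of 13, H3C6 and H3C10, and H4 had 2 of 15, H4C8 and H4C14. H1-1, H1-3, H1-5 and H1-6 had under 10 reads in every library. The germ-cell pair H2AC1 and H2BC1 was listed at 0 reads in every library. Near-identical copies are uncertain, because the counting could have dropped or split their reads: H3C14 and H3C15 had 0 reads each, H2AC18 had 0 and H2AC19 had 37, and H4C14 had 163 and H4C15 had 19.

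Per kilobase of annotated exon, the mean level over the 6 libraries was highest for H2BC12, at 76.2 CPM (read counts scaled to a common library size, with TMM normalisation) per kb, and H1-2, at 73.0. H2AC25 followed at 33.4, then H2AC6 at 12.8, H2BC11 at 11.6 and H3C10 at 9.56. H2AC13, at 7.67, and H2BC5, at 7.58, were next and lay within the spread of the libraries from each other. For comparison, the 11 replacement histone genes lay between 7.03 and 239 CPM per kb with a median of 52.0. On that scale 8 of the 69 replication-dependent genes reached the lowest replacement histone. Exon lengths were those of GENCODE 29, where the models of H2BC12 and H1-2 hold coding sequence alone. The counting may have used longer models, which would lower such values, so this ranking rests on the annotated lengths.

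The well-read genes tended to be those with a long annotated 3′ untranslated region. At least 10 reads in all libraries were found for 13 of 25 genes with an annotated region over 200 bases, 2 of 10 with one up to 200 bases, and 2 of 34 whose model is coding sequence alone. Those last 2 were H1-2 and H2BC12, which also had the highest level per length. A poly(A) signal, AATAAA or ATTAAA in the last 40 bases of a coding transcript, was annotated for 12 of the 17 genes and 11 of the other 52. A spliced transcript was annotated for 8 of the 17 and 5 of the other 52. The stem-loop was found in 14 of the 17 as well as in 17 of the 52, so a long model usually contained both ends. The median exon length was 1668 bases for the 17 and 411 bases for the 52, and a short model collects fewer reads, so the count of well-read genes depends on length. Per kilobase the medians were 1.14 CPM for genes with a region over 200 bases, 0.807 for those up to 200 and 0.188 for coding sequence alone. The gene models behind the authors' counting are not given here.

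**Figure D1:**
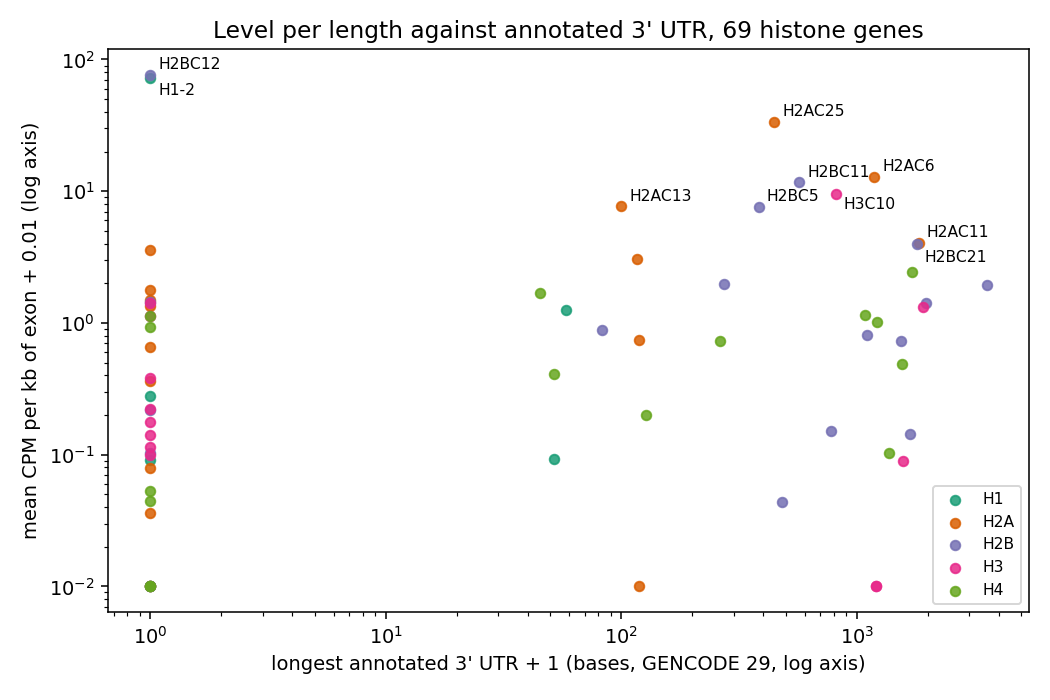
Mean level over the 6 libraries (CPM per kb of exon plus 0.01, log axis) against the longest annotated 3′ untranslated region (bases plus 1, log axis) for each of the 69 histone genes, coloured by family. H2BC12 and H1-2, with no annotated region, lie highest at 76.2 and 73.0, and the other labelled genes lie between 3.95 and 33.4.

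H2A and H2B genes often lie head to head and share the stretch between their starts, and 11 such pairs lay 218 to 330 bases apart. The 2 genes of a pair could differ widely in level. H2BC12 had 2633 reads while its partner H2AC12 had 23, or 76.2 against 0.651 CPM per kb. H2AC25 stood at 33.4 and H2BC26 at 1.40 CPM per kb, and H2AC6 at 12.8 and H2BC4 at 1.98. H2AC13 was at 7.67 against 0.877 for H2BC13. In the pair of H2AC11 and H2BC11 the H2B gene was the higher one, at 11.6 against 4.03.

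Summed over the 69 genes, the histone level was nearly the same in both groups. It was 234, 221 and 226 CPM in ERbeta 1 to 3 and 221, 217 and 222 CPM in EV_Ctrl 1 to 3. The ranges overlapped at 221 CPM, and the means were 227 ± 6.21 and 220 ± 2.60 (SD, n = 3 each), a difference of 6.73 CPM. Scaled by library size alone the order was reversed, with means of 219 for ERbeta and 228 for EV_Ctrl. The same reads made up 0.0213% to 0.0236% of each library.

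The family sums were also close. H2B summed to 77.7 ± 5.56 CPM in ERbeta and 74.4 ± 3.26 in EV_Ctrl, H2A to 69.2 ± 2.27 and 70.2 ± 1.21, and H1 to 49.4 ± 2.36 and 46.8 ± 3.26. H3 summed to 17.5 ± 1.95 and 16.8 ± 0.411, and H4 to 13.3 ± 2.24 and 12.3 ± 0.551 (SD, n = 3 in each group). In each family the difference between the means was smaller than the larger of the 2 group SDs. H2B held 32.4% to 35.3% of the histone reads in a library, H2A 29.5% to 32.3%, H1 19.4% to 23.6%, H3 6.92% to 8.14% and H4 4.86% to 6.45%.

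**Figure D2:**
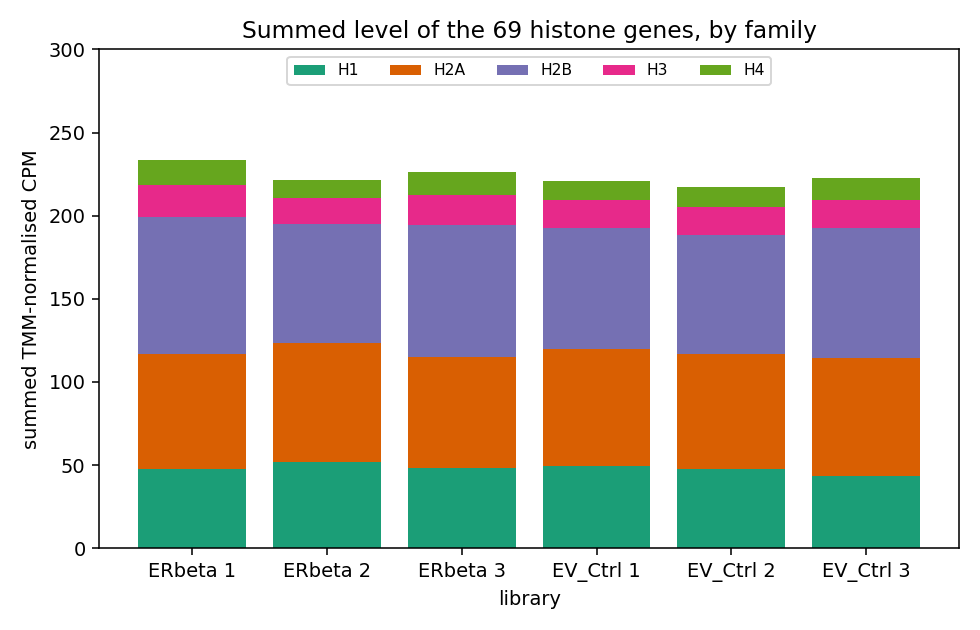
Summed TMM-normalised CPM of the 69 histone genes in each of the 6 libraries, stacked by family. The totals lie between 217 and 234 CPM, with H2B and H2A the largest layers in every library.

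Gene by gene, no histone gene passed the test. Of the 69 genes, 25 had enough reads to be tested, and 0 of these had an adjusted p under 0.05 (edgeR quasi-likelihood test, Benjamini-Hochberg over 16243 genes), where 0% of all tested genes were called. With an unadjusted p under 0.05, 5 were higher in ERbeta, against 9.54% of all tested genes, and 0 were lower, against 2.88%. The groups did not overlap for 7 of the 25, of which 5 were higher, against 10.2% of all tested genes, and 2 lower, against 8.48%. DESeq2 called 1 of the 25, H2BC5, where it called 0.432% of all genes higher and 0.00617% lower. Limma-voom called 0 of the 25, where it called 0.00616% of all genes higher. The log2 fold change (ERbeta over EV_Ctrl) was positive for 14 of 25, against 48.3% of all tested genes, with a median of 0.05 against -0.01. Among the 17 genes with 10 reads in every library it was positive for 8 and negative for 9, against 47.9% positive of 14424 such genes, with a median of -0.0030 against -0.01. Of the 17, 1 was higher with an unadjusted p under 0.05, against 9.84% of such genes, and 0 were lower, against 2.93%. The other 8 tested genes had under 10 reads in some library, and H1-4 among them passed the filter through the group where it was high. Counts over these 8 genes carry no weight of their own.

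**Figure D3:**
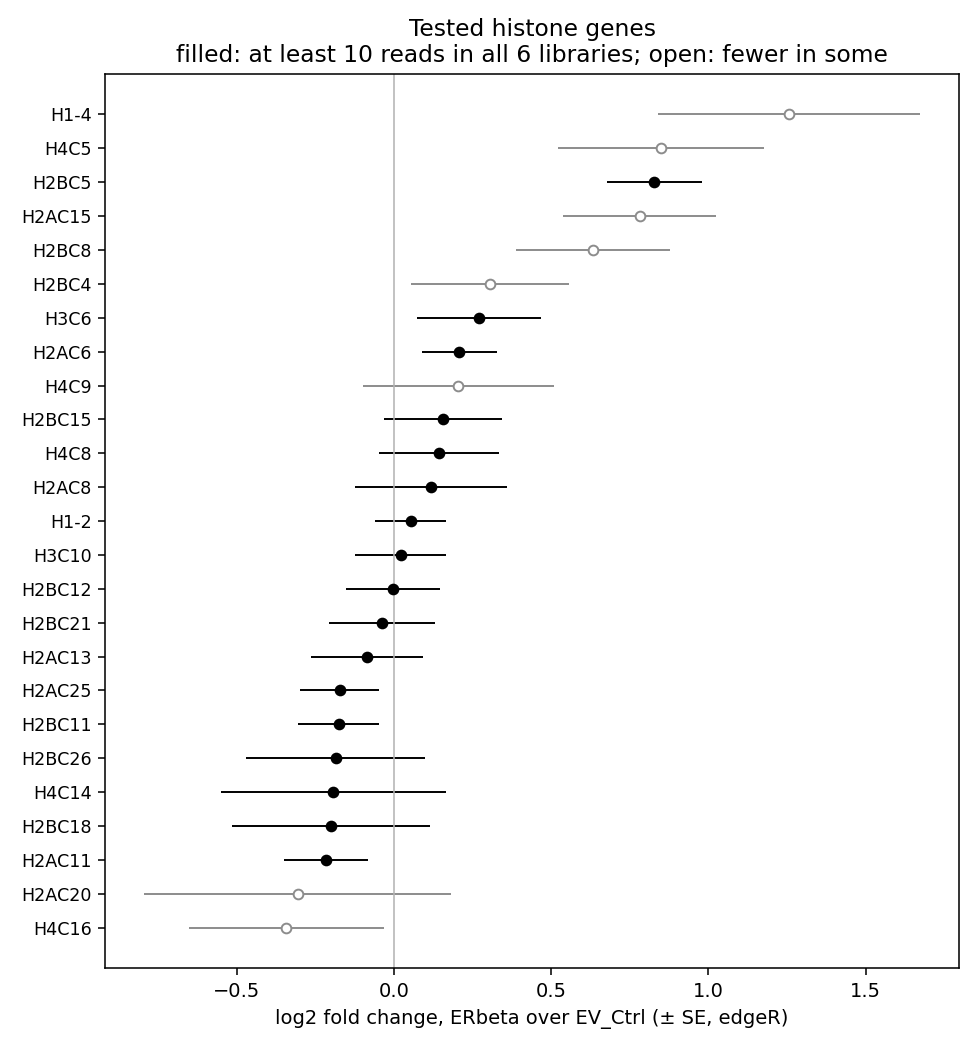
Log2 fold change, ERbeta over EV_Ctrl, with its standard error for the 25 tested histone genes, filled for the 17 with at least 10 reads in all libraries and open for the rest. The 17 run from -0.22 for H2AC11 to 0.83 for H2BC5, and without H2BC5 the highest is 0.27 for H3C6.

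The linker histone H1-2, which binds DNA between nucleosomes, had the most reads. Its level was 46.1, 50.7 and 46.3 CPM in ERbeta 1 to 3 and 49.2, 46.7 and 42.1 CPM in EV_Ctrl 1 to 3. The groups overlapped, with the lowest library in EV_Ctrl. The log2 fold change was 0.05 ± 0.11 (SE; edgeR adjusted p = 0.843).

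The H2A genes encode the core histone that pairs with H2B. H2AC25 was at 25.7, 32.3 and 26.2 CPM in ERbeta and 31.2, 32.1 and 31.6 CPM in EV_Ctrl, where ERbeta 2 reached the control values and the other ERbeta libraries lay below (log2 fold change -0.17 ± 0.13 SE, edgeR adjusted p = 0.553). H2AC6 was at 23.8, 21.5 and 23.1 CPM in ERbeta and 21.6, 18.2 and 19.7 CPM in EV_Ctrl, with an overlap between ERbeta 2 and EV_Ctrl 1 alone (0.21 ± 0.12, adjusted p = 0.466). Corrected for GC content, H2AC6 stood at -0.03, so its direction depended on that correction. H2AC11 was at 8.46, 8.34 and 8.42 CPM in ERbeta and 8.73, 9.65 and 10.8 CPM in EV_Ctrl. All 3 ERbeta libraries lay below the controls for H2AC11, but by less than the test requires (-0.22 ± 0.13, adjusted p = 0.496). H2AC13 and H2AC8 were lower in level, at means of 3.86 and 1.55 CPM, with log2 fold changes of -0.08 ± 0.18 and 0.12 ± 0.24 and overlapping groups.

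Among the H2B genes, H2BC5 had the largest difference of any well-read histone gene. The gene, formerly HIST1H2BD, lies at chr6:26158146-26171349 on the plus strand of GRCh38. Its reads numbered 142, 127 and 103 in ERbeta 1 to 3 and 32, 116 and 63 in EV_Ctrl 1 to 3. Normalised, these were 8.77, 8.27 and 8.26 CPM against 4.43, 4.37 and 5.49 CPM. The lowest ERbeta library was above the highest EV_Ctrl library, which held for H2BC5 alone among the 17, and for 10.1% of the 14424 genes with 10 reads in all libraries. EV_Ctrl 2, which resembled the ERbeta libraries across all genes, was the lowest of the 6 for H2BC5. The log2 fold change was 0.83 ± 0.15 (SE; edgeR adjusted p = 0.297, unadjusted 0.000683), so the gene did not pass over all genes.

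The H2BC5 value was much the same under every setting tried, but its call was not. It lay between 0.74 and 0.95 on the log2 scale over all settings. DESeq2 gave 0.82 with an adjusted p of 0.039, where 0.432% of genes were called higher and 0.00617% lower. Without EV_Ctrl 2, edgeR gave 0.76 with an adjusted p of 0.0258, where 13.5% of genes were called higher and 0.775% lower. In the remaining edgeR and voom fits it did not pass. The authors' deposited table lists H2BC5 with a log2 fold change of 0.58, a p of 0.00072 and no adjusted p. That table was not made from these count columns alone. Its fold changes were also smaller in size than those of the main fit for every thinly read tested gene, such as 0.48 against 1.26 for H1-4. For H2AC25, with many reads, the values were -0.16 and -0.17. The fold change of H2BC5 there is therefore not directly comparable with the values above, and the reason for the smaller sizes was not tested. Of the 69 genes, 9 had an adjusted p in the authors' deposited table, H2BC5 not among them. Of these 9, 0 were under 0.05, where 3.35% of the genes with an adjusted p were called higher there and 0.43% lower.

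H2BC5 had 2 annotated coding transcripts. One was unspliced, 496 bases long, with a 3′ untranslated region of 91 bases that held the stem-loop printed above, 37 bases after the stop codon. The other was spliced from 2 exons, 789 bases long, with a 3′ untranslated region of 384 bases and no stem-loop match. Both had AATAAA in the last 40 bases. The counts add reads over both forms, so which form differed was not tested. LARP1P1, a pseudogene on the same strand within the span of H2BC5, had 5 reads in all, and an antisense gene on the other strand also overlaps it.

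The other H2B genes with 10 reads in every library showed no such separation upwards. H2BC12 was at 30.0, 24.2 and 32.9 CPM in ERbeta and 28.0, 32.2 and 26.8 CPM in EV_Ctrl, with ERbeta holding both the highest and the lowest library (log2 fold change -0.0030 ± 0.15 SE, edgeR adjusted p = 0.994). H2BC11 was at 10.6, 10.8 and 9.71 CPM in ERbeta and 11.9, 10.8 and 12.5 CPM in EV_Ctrl. ERbeta 2 and EV_Ctrl 2 differed only past the digits shown, so the groups of H2BC11 touched without overlap (-0.18 ± 0.13, adjusted p = 0.552). H2AC11 and H2BC11 were the 2 of 17 genes with all ERbeta libraries below all controls, where 8.85% of the genes with 10 reads in all libraries were so.

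H2BC15 was at 12.8, 10.4 and 10.3 CPM in ERbeta and 9.28, 8.45 and 12.5 CPM in EV_Ctrl, with EV_Ctrl 3 among the ERbeta values (log2 fold change 0.16 ± 0.19 SE). Corrected for GC content it stood at -0.24. H2BC21 was at 9.39, 8.08 and 8.02 CPM in ERbeta and 9.56, 7.24 and 9.75 CPM in EV_Ctrl, where the controls spanned the ERbeta range (-0.04 ± 0.17). H2BC18 and H2BC26 had log2 fold changes of -0.20 ± 0.32 and -0.19 ± 0.28 and overlapping groups. EV_Ctrl 1 was the highest library for H2BC26 at 4.85 CPM and EV_Ctrl 2 the lowest at 2.34.

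The H3 and H4 genes encode the core of the nucleosome's central tetramer. H3C10 was at 12.5, 10.5 and 12.9 CPM in ERbeta and 10.7, 13.0 and 11.4 CPM in EV_Ctrl, with each group reaching past the other (log2 fold change 0.02 ± 0.14 SE, edgeR adjusted p = 0.956). H3C6 was at 4.57, 3.52 and 3.37 CPM in ERbeta and 3.74, 3.02 and 2.96 CPM in EV_Ctrl, where EV_Ctrl 1 lay above 2 ERbeta libraries (0.27 ± 0.20). H4C8 was at 6.24, 4.36 and 6.10 CPM in ERbeta and 5.13, 5.43 and 4.44 CPM in EV_Ctrl, with ERbeta 2 the lowest library of the 6 (0.14 ± 0.19). H4C14 had a log2 fold change of -0.19 ± 0.36 and overlapping groups.

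**Figure D4:**
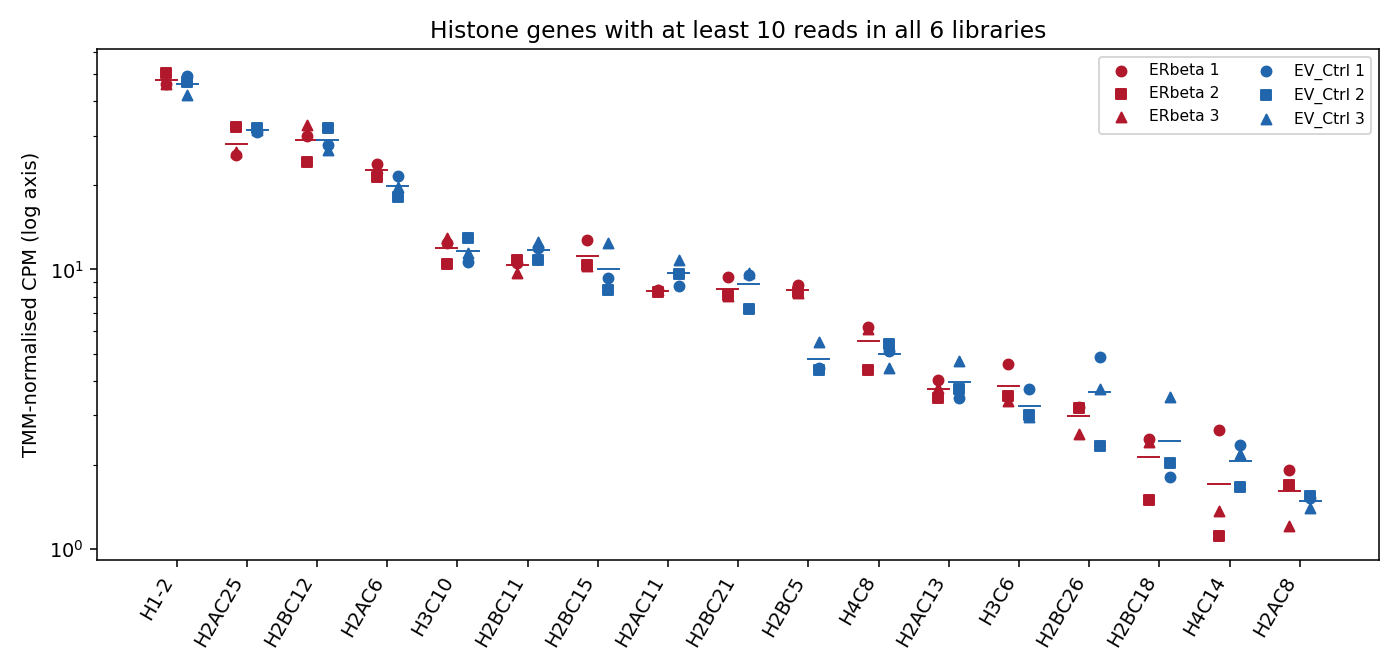
TMM-normalised CPM (log axis) of the 17 histone genes with at least 10 reads in all libraries, by library, with ERbeta in red, EV_Ctrl in blue and a line at each group mean. H2BC5 is the one gene whose ERbeta libraries, at 8.26 to 8.77, all lie above its EV_Ctrl libraries, at 4.37 to 5.49.

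Of the thinly read tested genes, 4 had higher ERbeta values without overlap, against 10.2% of all tested genes. The linker histone H1-4 had 24, 19 and 16 reads in ERbeta and 1, 13 and 11 in EV_Ctrl, so that its log2 fold change of 1.26 ± 0.42 (edgeR adjusted p = 0.397) rests on few reads. H4C5 was at 2.04, 2.15 and 2.25 CPM in ERbeta and 0.970, 0.829 and 1.92 CPM in EV_Ctrl (0.85 ± 0.33). H2BC8 was at 1.42, 1.69 and 1.44 CPM against 0.693, 1.06 and 1.04 CPM (0.63 ± 0.25). H2AC15 was at 2.10, 1.43 and 1.77 CPM against 1.11, 0.980 and 1.04 CPM (0.78 ± 0.24). H2AC15 lies on the opposite strand within the span of H2BC15, and the strand setting of the counting is not given, so its reads are uncertain. Without EV_Ctrl 2 none of these 4 passed, with edgeR adjusted p from 0.221 to 0.405.

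By position, H1-4, H2BC5, H4C5 and H2BC8 lay within 60.3 kb at chr6:26156354-26216692, a stretch picked after their values were seen. H1-4 ends 1038 bases before the start of H2BC5 on the same strand. The stretch holds 9 of the histone genes, and these 4 were the ones tested there. The other 5, H2BC6, H4C4, H3C4, H2AC7 and H2BC7, had 7 to 46 reads in all and were not tested. H1-4, H4C5 and H2BC8 had under 10 reads only in EV_Ctrl libraries. The filter weighs reads against library size. H1-4, at 0.139 and 0.490 CPM in EV_Ctrl 1 and 2, passed it through ERbeta. H4C5 and H2BC8 had at least 0.829 and 0.693 CPM in every control library and did not need ERbeta to pass. The nearest tested genes outside the chosen edges had overlapping groups. These were H2AC6 before the stretch (0.21 ± 0.12 SE), and H2AC8 (0.12 ± 0.24) and H3C6 (0.27 ± 0.20) after it. H2AC8 is the head-to-head partner of H2BC8.

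In the 5 head-to-head pairs with both genes tested, both had the same sign of the log2 fold change. The values were 0.21 for H2AC6 and 0.30 for H2BC4, 0.12 for H2AC8 and 0.63 for H2BC8, and -0.22 for H2AC11 and -0.18 for H2BC11. They were -0.31 for H2AC20 and -0.04 for H2BC21, and -0.17 for H2AC25 and -0.19 for H2BC26. The pattern was not stable: with the GC correction 4 of 5 pairs had the same sign, and without EV_Ctrl 1 it was 3 of 5.

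**Figure D5:**
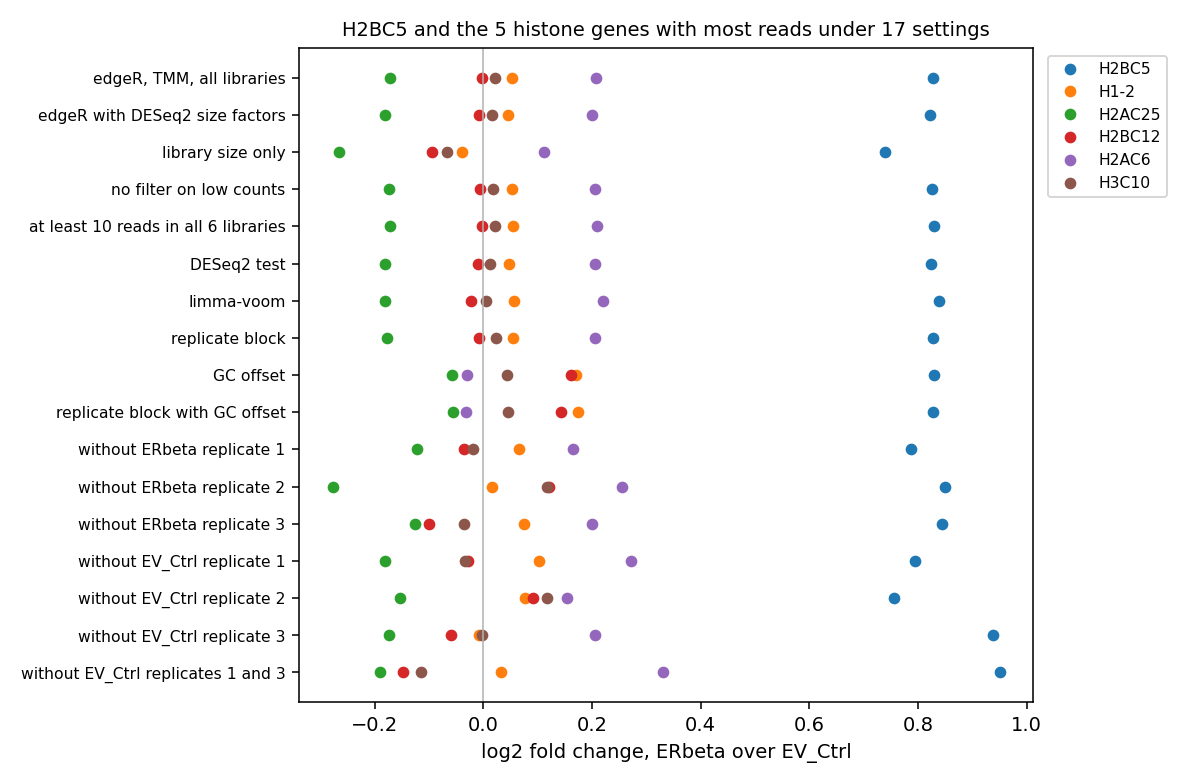
Log2 fold change, ERbeta over EV_Ctrl, of H2BC5 and of the 5 histone genes with most reads under the main fit and each of 16 alternative settings. H2BC5 lies between 0.74 and 0.95 throughout, and H1-2, H2BC12, H2AC6 and H3C10 fall on either side of 0 depending on the setting.

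The genes that make, cut and destroy histone messages were taken from lists of textbook components, and 0 of the genes in each list passed the edgeR test over all 6 libraries. Without EV_Ctrl 2, where 13.5% of all genes were called higher and 0.775% lower, the genes called higher were 3 of 19 in the list for 3′ processing, 4 of 14 for transcription and 5 of 18 for decay. They were 7 of 15 for polyadenylation, 0 of 11 for replacement histones, 4 of 17 for chaperones and 2 of 30 for S phase, and 0 were called lower in any of these lists. In the list for 3′ processing, 15 of 19 tested genes were positive (log2 fold change, ERbeta over EV_Ctrl), with a median of 0.12. SLBP, the stem-loop binding protein, was at 77.5 ± 3.85 CPM in ERbeta and 72.8 ± 4.62 in EV_Ctrl (SD, n = 3), a log2 fold change of 0.09 ± 0.10. LSM10 and LSM11, the Sm-like proteins particular to the U7 particle, had log2 fold changes of 0.03 ± 0.13 and -0.27 ± 0.14, or 0.15 and -0.39 with the GC correction. The cap-binding subunit NCBP2 stood at 0.27 ± 0.12, and at -0.07 with the GC correction.

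In the transcription list, 8 of 14 genes were positive with a median of 0.02. NPAT, the coactivator of histone genes that cyclin E with CDK2 switches on, was at 48.0, 43.3 and 57.8 CPM in ERbeta and 16.6, 44.2 and 14.4 CPM in EV_Ctrl. EV_Ctrl 2 lay among the ERbeta libraries and the other controls lay well below. The log2 fold change of NPAT was 0.96 ± 0.40, 0.52 with the GC correction and 1.70 without EV_Ctrl 2. NFYB, a subunit of the factor that binds CCAAT, stood at 0.47 ± 0.19 and at -0.12 with the GC correction, and E2F1, a driver of S phase genes, at -0.28 ± 0.12 and at -0.10. Without EV_Ctrl 2, NFYB stood at 0.72.

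In the decay list, 12 of 18 genes were positive with a median of 0.19, which was 0.03 with the GC correction. TUT7, which adds uridines to histone messages due for decay, resembled NPAT in that EV_Ctrl 2 lay far above the other controls. It was at 55.0, 50.4 and 68.4 CPM in ERbeta and 16.9, 49.2 and 19.3 CPM in EV_Ctrl. Unlike for NPAT, EV_Ctrl 2 lay just below the lowest ERbeta library. The log2 fold change of TUT7 was 1.00 ± 0.38, 0.74 with the GC correction and 1.68 without EV_Ctrl 2. ERI1, the nuclease that trims the end of the stem-loop, stood at 0.61 ± 0.21 and XRN1, the main 5′ to 3′ nuclease of the cytoplasm, at 0.91 ± 0.38. With the GC correction these were 0.24 and 0.42, and without EV_Ctrl 2 they were 0.86 and 1.43.

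Because the libraries select poly(A) tails, the polyadenylation machinery was examined too. Of 15 genes 10 were positive, with a median of 0.15 and of 0.04 with the GC correction. FIP1L1 stood at 0.48 ± 0.13, CPSF6 at 0.47 ± 0.13 and PCF11 at 0.59 ± 0.18, all subunits or partners of the cleavage complex. With the GC correction these were 0.37, -0.07 and 0.39. The low GC genes were lowest in EV_Ctrl 1 and 3 and highest in ERbeta 3. The part of GC content in the values of these polyadenylation genes was not tested beyond the correction.

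Among the replacement histones, of 11 genes 5 were positive and 6 negative, with a median of -0.03. H3-3B, one of the genes for H3.3, was at 698 ± 14.3 CPM in ERbeta and 630 ± 39.3 in EV_Ctrl (log2 fold change 0.15 ± 0.09). H2AZ1 was at 566 ± 52.2 and 534 ± 74.4 (0.08 ± 0.13), and H2AX, the variant marked at DNA breaks, at 196 ± 42.3 and 232 ± 21.9 (-0.24 ± 0.16; SD, n = 3 in each group). H3-3A stood at 0.08 ± 0.17 and MACROH2A1 at -0.09 ± 0.09. With the GC correction H3-3A turned to -0.24, MACROH2A1 stood at -0.22 and H2AX at -0.03. Without EV_Ctrl 2, H2AZ1 stood at 0.17 and H3-3A at 0.25.

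Histone chaperones and S phase genes were the last lists. Of 17 tested chaperone genes 10 were positive, with a median of 0.04. HAT1, which acetylates new H4, stood at 0.69 ± 0.37, or 0.44 with the GC correction and 1.33 without EV_Ctrl 2, and ASF1A, a carrier of H3 and H4, at 0.69 ± 0.27, or 0.08 with the GC correction and 1.13 without EV_Ctrl 2. NAP1L1, a carrier of H2A and H2B, stood at 0.35 ± 0.13, or -0.13 with the GC correction. Of 30 S phase genes 12 were positive and 18 negative, with a median of -0.07. PCNA, the sliding clamp of the replication fork, was at 398 ± 25.4 CPM in ERbeta and 367 ± 38.4 in EV_Ctrl (log2 fold change 0.12 ± 0.11). The cyclins CCNE1 and CCNE2 stood at -0.21 ± 0.11 and 0.58 ± 0.25, and at -0.13 and 0.08 with the GC correction. Without EV_Ctrl 2, CCNE2 stood at 0.96. GINS4, of the replicative helicase, stood at -0.41 ± 0.18.

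RNAs that carry no poly(A) tail were looked at as a rough gauge of how much such RNA was counted. Of 18 listed, 17 were in the table, 9 were listed at 0 and 0 had enough reads to be tested. Their summed level was 0.562 to 1.24 CPM in ERbeta and 0.522 to 1.25 CPM in EV_Ctrl, with overlapping ranges. Many of these RNAs are short and such kits keep few short fragments, so the sum is not a direct measure of carry-over. The share of the histone reads that came from RNA with a poly(A) tail was not tested.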

How the data were processed

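RNA of 6 libraries (3 ERbeta, 3 EV_Ctrl) was sequenced with the TruSeq Stranded mRNA kit, per the labels' protocols, a kit that selects poly(A) RNA. The submitters' processing notes name TopHat2, featureCounts, DESeq2 and hg38; tool versions, annotation and strand setting are not given here, so overlapping and antisense genes are uncertain. The authors deposited raw whole-number read counts per gene. Per the file headers, the authors' second table holds a mean signal (mean normalised count), a log2 fold change with its standard error, a Wald score and p-values; it was only quoted. It gives a mean signal above 0 for 8079 of the 33813 genes with 0 reads in all 6 libraries, so it was not made from these 6 columns of counts alone.

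Identifiers were matched without version to current symbols (65 genes) or older names (4). Genes passing edgeR's filterByExpr (minimum count 10, minimum total 15) numbered 16243 and held 99.8% of reads. Counts were TMM-normalised and tested with edgeR 4.0.16 (glmQLFit, glmQLFTest, R 4.3.3), group as the only term, Benjamini-Hochberg over all tested genes, threshold 0.05. Standard errors came from the quasi-likelihood F statistic. The fits were tested on simulated data. Alternatives were DESeq2 1.42.0, limma-voom 3.58.1, other scalings and filters, a GC offset (loess on transcript GC, span 0.5), a replicate block and left-out libraries. Pairs of libraries within a group differed by more than counting noise (chi-square per degree of freedom 4.99 to 37.6), so all 6 were used.

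Named were all histone genes with 10 reads in every library, with library values for the 12 highest and the 6 with the smallest p, and from each list the 3 smallest p plus fixed components; genes outside that rule, the tested pairs and the 60.3 kb stretch were chosen after their values were seen. The members and lists were chosen with earlier results of these data known. One gene named by that rule is not reported here.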

Additional observations from a re-analysis of the deposited data

How the results depend on the processing

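The edgeR test called 0 genes, with 1550 higher and 468 lower at an unadjusted p under 0.05. It called 51 with no filter on low counts, DESeq2 called 71, limma-voom 1, and leaving out a library gave 0 to 2324, the last without EV_Ctrl 2. Histone genes called were 1 by DESeq2 and 0 to 1 with a library left out, again the last without EV_Ctrl 2 (H2BC5 both times). The replicate numbers did not pair the libraries (r = 0.23, -0.14 and -0.15 for numbers 1 to 3), and with the replicate block 0 genes and 0 histone genes were called, the histone median was 0.05 and H2BC5 stood at 0.83 (adjusted p = 0.433). Scaling by library size alone moved the median of all genes to -0.10, the histone median to -0.040, H1-2 to -0.040 and H3C10 to -0.067, and gave summed histone levels of 219 CPM in ERbeta and 228 in EV_Ctrl. Without H1-2 the sums were 179 and 174 CPM. Of 272 pairs of a well-read gene and a setting, 236 kept direction and side of the threshold, 34 turned in sign, over 12 genes and all far from the threshold, and 2 passed it. The GC offset gave H2AC6 -0.030, H2AC13 0.041, H2BC12 0.16 and H2BC15 -0.24; with the replicate block added these were -0.032, 0.044, 0.14 and -0.24, and H4C8 -0.013. Without EV_Ctrl 1 and 3 the values were H2AC13 0.0092, H2BC18 0.061, H2BC21 0.24, H2BC26 0.36, H3C10 -0.11 and H4C14 0.066, with the lone control library assumed to vary like the ERbeta group. With a library left out the ranges of genes that turned were H1-2 -0.0079 to 0.10, H2AC8 -0.041 to 0.27, H2AC13 -0.15 to 0.043, H2BC12 -0.10 to 0.12, H2BC18 -0.37 to 0.11, H2BC21 -0.18 to 0.050, H2BC26 -0.48 to 0.035, H3C10 -0.035 to 0.12 and H4C14 -0.70 to 0.057. The cause of these turns was not tested. Depth limits the 52 genes without 10 reads in every library, most of which had too few reads for any comparison.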

Other observations

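Of 21 further rows with an older histone cluster name outside the rule, 19 were pseudogenes and 1 had at least 10 reads in all 6 libraries. This was H2BC20P, a pseudogene formerly HIST2H2BC (chr1:149844498-149850937, minus strand, GRCh38), with 2099 reads, more than all of the 69 genes except H1-2, H2AC25 and H2BC12. Its level was 25.6 ± 4.97 CPM in ERbeta and 22.8 ± 5.70 in EV_Ctrl (SD, n = 3), with a log2 fold change of 0.17 ± 0.22 (SE; edgeR adjusted p = 0.729). Reads shared with near-identical H2B genes were not tested.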
